A study of Mus musculus with 2 samples.

Results

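The genes described here were listed under oxidation, binding, uptake and breakdown of retinoids: Adh1, Aldh1a1, Aldh1a2, Aldh1a7, Rbp4, Rdh10, Dhrs3, Stra6 and Cyp26a1. Members were the probe sets that the platform annotation assigns to exactly 1 gene, where that gene is 1 of these 9. They came to 10 probe sets for 9 genes, of 18193 genes that such probe sets cover. The genes were chosen by a list drawn up with their signals on these arrays, and so the difference between genotypes, already known. The differences below are therefore a description.

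Whole liver was taken at E14.5 from Prox1 f/f;Foxa3Cre and wild-type mouse embryos, both of the NMRI/C57Bl6 strain, and each genotype was read on 1 Affymetrix array. In the conditional knockout, Cre driven by Foxa3, which is expressed in endoderm of liver and gut, recombines a floxed Prox1, the gene of a homeodomain factor found in hepatoblasts. Blood, endothelial and mesenchymal cells of the liver do not arise from that endoderm. How many embryos were used per sample is not stated in the labels. With 1 array per genotype there is no replicate check, no SD and no test, and each value below is a single measurement.

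Retinol leaves the liver bound to retinol-binding protein, encoded by Rbp4, and enters target cells through receptors such as STRA6. It is oxidized reversibly to retinal by alcohol and retinol dehydrogenases, and irreversibly to retinoic acid by retinal dehydrogenases of the ALDH1A class. Retinoic acid binds nuclear receptors and is removed by CYP26 enzymes. In the liver, stellate cells store retinol as retinyl esters, and hepatocytes secrete its carrier.

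The 9 genes did not differ alike. Adh1, Aldh1a1 and Aldh1a7 each read at least 2-fold higher in the knockout. Aldh1a2, Rbp4, Rdh10 and Dhrs3 differed by less than 2-fold. Stra6 and Cyp26a1 lay below the floor on both arrays. Signals are MAS5 intensities on a linear scale, and the floor was 112.6 signal units, the higher of the arrays' medians. A gene under it on 1 array has only a bound, written as at least N-fold. Log2 differences are knockout minus wild-type.

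In counts, 7 of the 9 genes exceeded the floor on 1 or both arrays. Of these, 3 were higher by 2-fold or more, 0 were lower by 2-fold or more and 4 lay between. Over all 11397 measured genes, 3.27% were higher and 2.13% were lower by that much. The median log2 difference was 0.50 over the 7 retinoid genes and 0.03 over all measured genes. These genes were listed with this contrast known, so the counts are not read against each other.

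**Figure D1:**
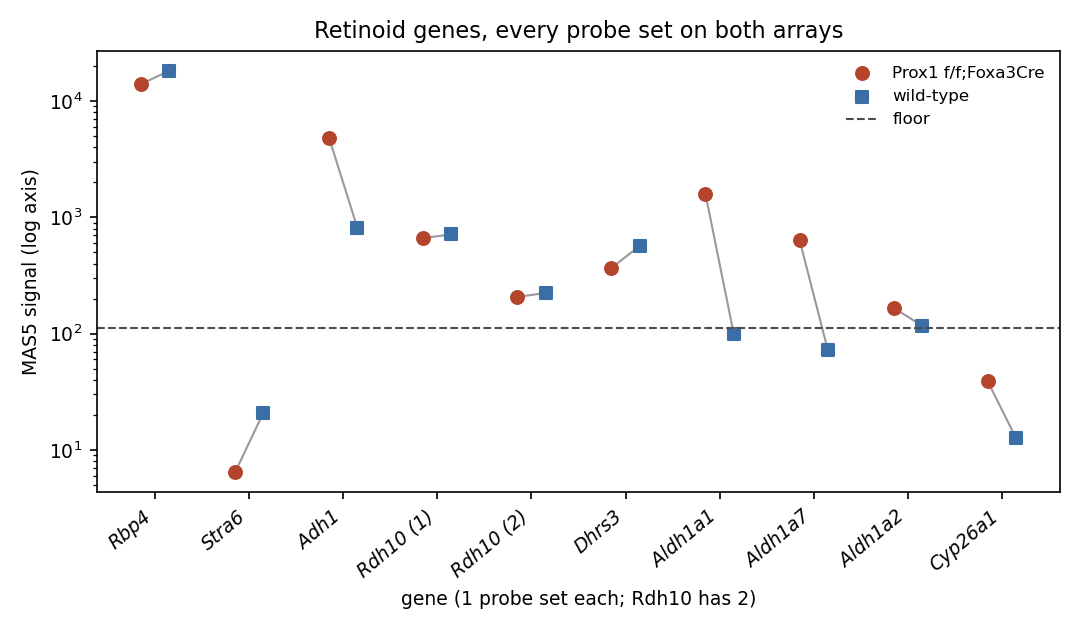
MAS5 signal (log axis) of each probe set of the 9 retinoid genes on the Prox1 f/f;Foxa3Cre array (circles, left) and the wild-type array (squares, right), 1 array each. The dashed line is the floor of 112.6; Adh1, Aldh1a1 and Aldh1a7 have the widest gaps above it, and both Stra6 and Cyp26a1 lie wholly under it.

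The dehydrogenases that turn retinol into retinal and back lay on both sides of 0. Adh1, a cytosolic alcohol dehydrogenase that oxidizes ethanol and retinol, read 4818 in the knockout and 813.1 in wild type. That is 5.93-fold higher, a log2 difference of 2.57. Adh1 took rank 7 from the top among 10221 genes measured on both arrays, whose middle 95% ran from -0.84 to 1.01.

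Rdh10, the microsomal retinol dehydrogenase that supplies retinal in the embryo, had 2 probe sets. The brighter read 663.7 in the knockout and 712.8 in wild type, and the other 206.4 in the knockout and 223.7 in wild type. Their log2 differences were -0.10 and -0.12, so both probe sets read slightly lower in the knockout. Across 4593 genes with at least 2 probe sets measured on both arrays, the gap between the log2 differences of the 2 brightest had a median of 0.21 and a 90th percentile of 0.58. The Rdh10 difference is smaller than that median gap. This gap covers disagreement between probe sets on the same arrays, and not the spread between animals.

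Dhrs3, which reduces retinal back to retinol, read 366.9 in the knockout and 566.2 in wild type, 1.54-fold lower. Its log2 difference of -0.63 was the lowest of the 7 measured retinoid genes and stood at rank 440 from the bottom of the 10221. A difference of this size is just past the 90th percentile of the gap between probe sets, and Dhrs3 has 1 probe set.

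**Figure D2:**
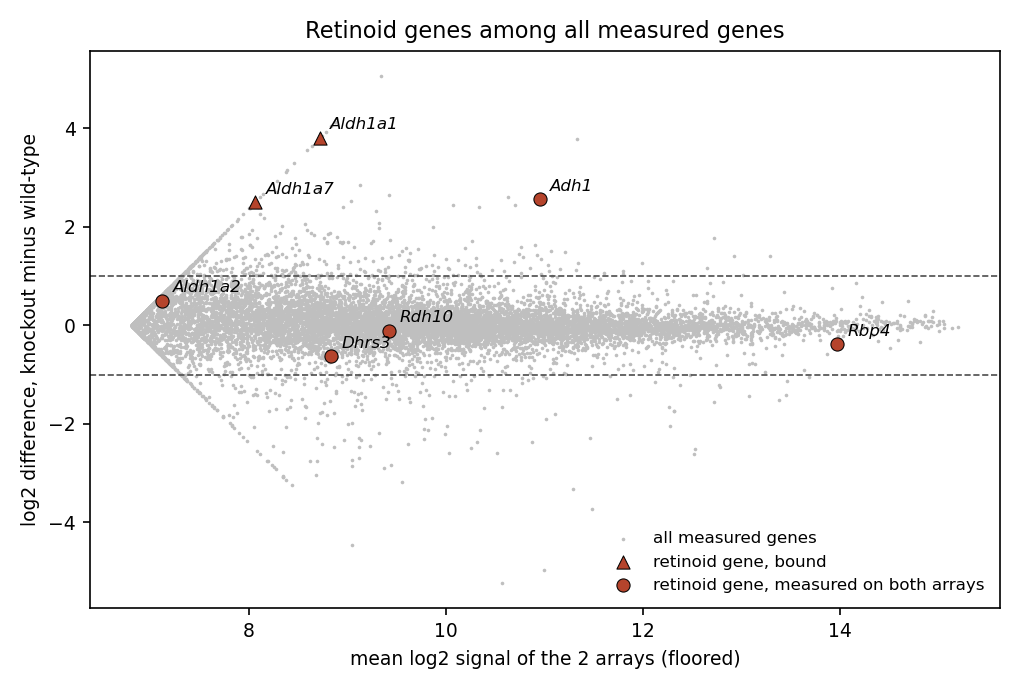
Log2 difference (knockout minus wild-type) against the mean log2 signal of both arrays for all 11397 measured genes (grey) and the 7 measured retinoid genes (red; triangles are bounds). Dashed lines mark 2-fold; Adh1, Aldh1a1 and Aldh1a7 lie above the upper line, and the other 4 retinoid genes lie between the lines.

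Of the Aldh1a genes, Aldh1a1 and Aldh1a7 were read above the floor in the knockout only. Aldh1a1, the main cytosolic retinal dehydrogenase of adult tissues, read 1586 in the knockout and 99.8 in wild type, under the floor. It was at least 14.1-fold higher, and its bound of 3.82 took rank 6 among 812 genes measured in the knockout only. Aldh1a7 is a close paralog of Aldh1a1 found in rodents, and whether its product oxidizes retinal was not examined here. It read 637.8 in the knockout and 72.3 in wild type, and was at least 5.66-fold higher. Its bound of 2.50 took rank 16 of the 812. Such a bound sets the knockout signal against the floor, so both ranks order genes by knockout signal and not by a measured difference.

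Aldh1a2, which makes most of the retinoic acid of the early embryo and is expressed in mesothelium and mesenchyme, stayed dim on both arrays. It read 166.0 in the knockout and 117.2 in wild type, just above the floor, with a log2 difference of 0.50. Aldh1a3, a further retinal dehydrogenase, did not reach the floor with any of its 3 probe sets. The probe set of highest mean log2 signal read 34.1 in the knockout and 42.0 in wild type. The highest single reading was 68.5 in the knockout, on a probe set that read 3.87 in wild type.

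Aldh1a1 and Aldh1a7 are adjacent protein-coding genes on chromosome 19, with 3 annotated non-coding or pseudogene entries and 0 protein-coding genes between them in the RefSeq order. Both are single probe sets whose identifiers carry no suffix for shared probes. Whether RNA of one paralog bound probes of the other was not tested. The start regions of this pair are shown because these neighboring paralogs, both above the floor in the knockout only, are also alike just before their starts. Both are RefSeq sequences of GRCm38.p6, from 250 bases before to 50 bases after an annotated start, for Aldh1a1 at chr19:20601718-20602017 on the plus strand and for Aldh1a7 at chr19:20727507-20727806 on the minus strand. Capitals mark runs of at least 12 identical bases in a global alignment of the windows.
Aldh1a1: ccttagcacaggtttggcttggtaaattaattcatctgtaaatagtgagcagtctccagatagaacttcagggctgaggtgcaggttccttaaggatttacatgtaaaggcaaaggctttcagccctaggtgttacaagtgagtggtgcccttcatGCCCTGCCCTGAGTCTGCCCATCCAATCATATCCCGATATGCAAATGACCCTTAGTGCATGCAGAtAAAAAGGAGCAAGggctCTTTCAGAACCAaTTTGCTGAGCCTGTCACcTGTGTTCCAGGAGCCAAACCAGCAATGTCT
Aldh1a7: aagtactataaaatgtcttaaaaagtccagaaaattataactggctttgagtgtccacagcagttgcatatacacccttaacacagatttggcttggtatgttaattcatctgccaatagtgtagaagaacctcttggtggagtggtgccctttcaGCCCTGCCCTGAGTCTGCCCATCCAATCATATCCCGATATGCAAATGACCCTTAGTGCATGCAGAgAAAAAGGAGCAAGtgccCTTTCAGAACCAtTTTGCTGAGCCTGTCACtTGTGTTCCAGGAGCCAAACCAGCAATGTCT

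The windows were 72.4% identical over 322 alignment columns, with 5 such runs covering 137 bases and the longest spanning 65. Within the 65-base run, the octamer ATGCAAAT starts 56 bases before the start site in both genes. Searched on both strands, ATGCAAAT occurs in 1.74% of 32851 RefSeq promoter windows of the same length, and it was looked for after the sequences were read. The Aldh1a2 window also holds it, and the Adh1 window does not. Another annotated start of Aldh1a1, at chr19:20492333-20492632, aligned with Aldh1a7 at 53.9% identity and shared 0 runs of that length.

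Aldh1a1 and Aldh1a7 are each other's neighbors. Apart from these, no measured neighbor of the 3 high members was 2-fold apart. Such differences were rare over all measured genes, at 3.27% higher and 2.13% lower. Few neighbors were measured, so finding none this far apart does not set the members' surroundings apart from other genes. Around Aldh1a1 and Aldh1a7, Anxa1, which encodes a phospholipid-binding protein, had a log2 difference of 0.89 and Gda, a guanine deaminase, of 0.63. Zfand5 had 0.22, and Carnmt1 and D030056L22Rik had -0.56 and -0.43. Adh1 stands in a cluster of alcohol dehydrogenase genes on chromosome 3. Of that cluster, Adh5, a formaldehyde-detoxifying enzyme, read 6183 in the knockout and 6641 in wild type. Adh7, Adh6a, Adh6b and Adh4 did not reach the floor on either array, at 71.9, 7.83, 73.4 and 67.5 in the knockout and 79.8, 16.4, 18.0 and 72.9 in wild type. So Adh1 was the one gene of its cluster that was both above the floor and at least 2-fold apart. The neighbors were examined after the members' values were known.

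**Figure D3:**
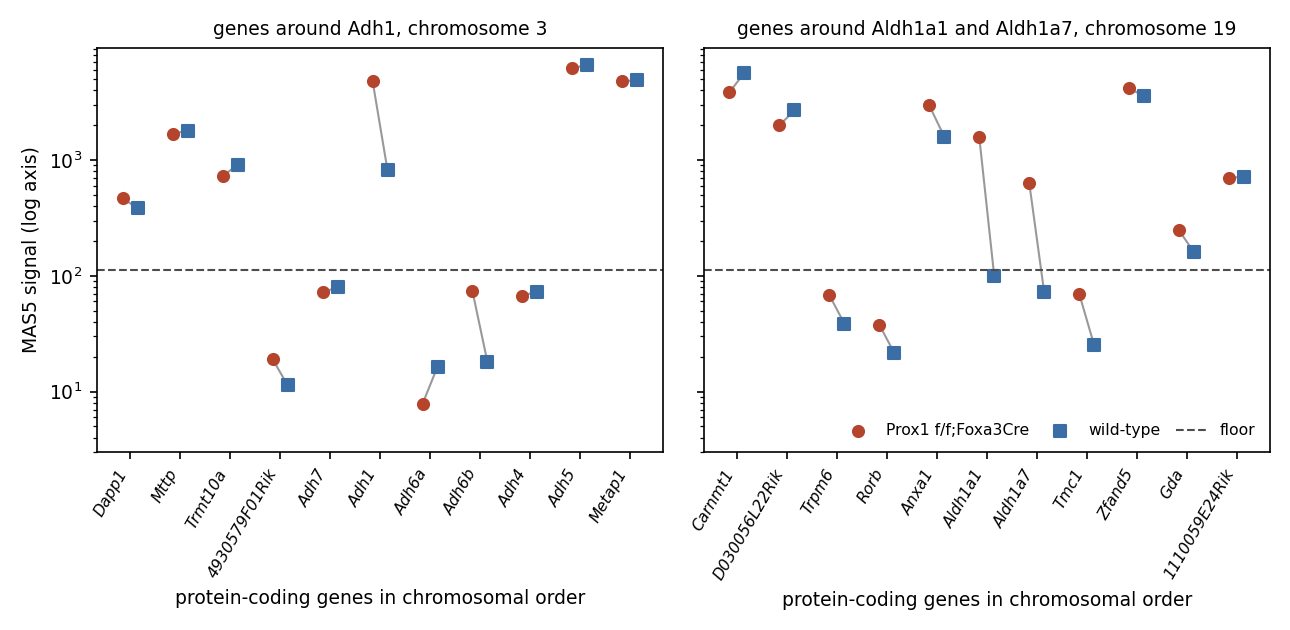
MAS5 signal (log axis) on the Prox1 f/f;Foxa3Cre array (circles, left) and the wild-type array (squares, right) for the 5 protein-coding genes with a probe set on each side of Adh1 (left panel) and of Aldh1a1 (right panel), in chromosomal order. Above the floor (dashed), Adh1, Aldh1a1 and Aldh1a7 have wider gaps between the arrays than the genes around them.

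Among genes measured on both arrays, those nearest to Adh1 in log2 difference were Ldhb (2.61), a lactate dehydrogenase chain, Lamb1 (2.53), a laminin chain, and Ermp1 (2.64), an endoplasmic reticulum peptidase. They lay up to 0.07 from the Adh1 value. The likeness is in 1 difference between 2 arrays.

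Carrier and uptake genes gave smaller or unreadable differences. Rbp4, the plasma retinol carrier secreted by hepatocytes, read 13982 in the knockout and 18221 in wild type, 1.30-fold lower, with a log2 difference of -0.38. Ttr, transthyretin, which binds the Rbp4 protein in plasma, read 33415 in the knockout and 34600 in wild type, with log2 differences from -0.20 to 0.03 over 4 probe sets. Stra6, the cell-surface receptor for the carrier, read 6.39 in the knockout and 20.7 in wild type, so no fold is given. Stra6l, the related receptor of mouse liver, read 49.7 in the knockout and 240.7 in wild type, at least 2.14-fold lower. Of the carrier and its receptors, only Stra6l passed 2-fold.

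Cyp26a1, the cytochrome P450 that hydroxylates retinoic acid and is one of its best-known target genes, read 38.7 in the knockout and 12.6 in wild type. Both readings were below the floor, so no fold is given. Its start region holds a pair of retinoic acid receptor half-sites, printed here because Cyp26a1 is the member whose promoter carries one. On the minus strand of GRCm38.p6, at chr19:37697776-37697792, the site reads as follows, with the half-sites in capitals.
Cyp26a1: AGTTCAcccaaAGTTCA

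The site lies from 32 to 16 bases before the annotated start. The search took the 6-base half-site AGGTCA, its variant with T in the third place (AGTTCA), and the forms of both that begin with G (GGGTCA, or else with T, GGTTCA), paired in the same orientation on either strand with 5, 2 or 1 bases between them. Pairs with 5 bases between occurred in 0.0974% of the 32851 promoter windows, pairs with 2 bases in 0.268% and pairs with 1 base in 0.222%. Of 15 windows for 8 of the 9 retinoid genes, 1 held such a pair. Rdh10 had no entry. A match is a description of letters and not of binding.

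Other genes of the retinoid pathway lay in both directions. The comparison list holds 82 further genes of metabolism, receptors with cofactors, and retinoic acid targets. Of these, 70 are covered by a probe set for that gene alone and 47 were measured. Of the 47, 3 were higher and 6 lower by 2-fold or more, 38 lay between, and the median log2 difference was 0.06. Without receptors, cofactors and targets, 26 genes were measured, 2 higher and 5 lower by that much, with a median of -0.09. Of these 26, 11 were above 0 and 15 below 0. The shares over all 11397 measured genes were 3.27% higher and 2.13% lower. The comparison list was also written with earlier results of these arrays known.

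Among 12 other measured dehydrogenases, reductases and oxidases, 1 was higher and 2 were lower by 2-fold or more, with a median of -0.04. The shares of all measured genes past 2-fold were 3.27% higher and 2.13% lower. The higher gene was Aox3, an aldehyde oxidase of mouse liver, at 415.7 in the knockout and 8.57 in wild type, at least 3.69-fold higher. Aldh8a1, an aldehyde dehydrogenase that also accepts retinal, was the lowest, at 142.7 in the knockout and 1177 in wild type, 8.25-fold lower. Its second probe set read 78.8 in the knockout and 1102 in wild type, at least 9.79-fold lower. Aldh8a1 therefore went the opposite way to Aldh1a1 on both of its probe sets. Rdh5, a retinol dehydrogenase known from the eye, had a log2 difference of -1.0036, at 181.7 in the knockout and 364.2 in wild type. The farthest of the rest were Akr1b8, an aldo-keto reductase (0.90), and the retinal reductases Rdh11 (-0.53) and Rdh14 (-0.41), with Rdh7 at 0.24.

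**Figure D4:**
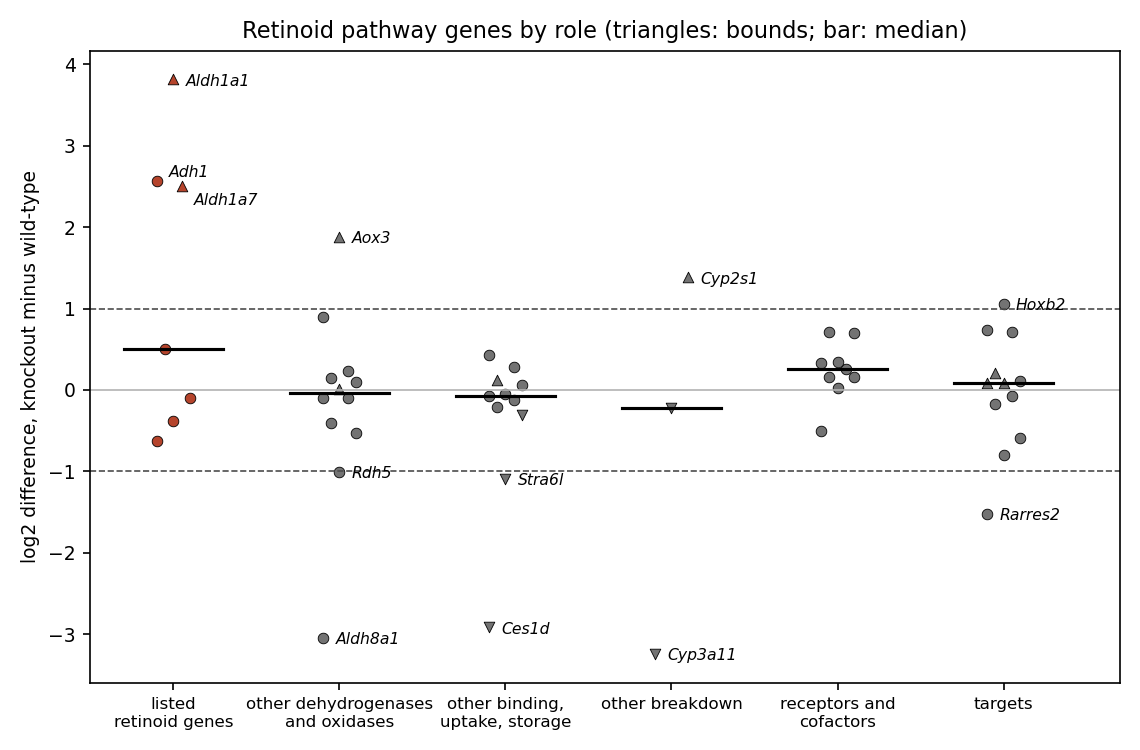
Log2 difference (knockout minus wild-type) of each measured gene by role, with the listed retinoid genes in red, bounds as triangles, group medians as bars and 2-fold as dashed lines. The listed genes at least 2-fold apart were higher, and the 47 other genes held 3 that were higher and 6 that were lower. Both lists were written with results of these arrays known, so these counts are not read against each other. The shares over all 11397 measured genes were 3.27% higher and 2.13% lower.

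Binding, uptake and storage genes held 11 measured members, 0 higher and 2 lower by 2-fold or more, with a median of -0.08. Of all measured genes, 3.27% were higher and 2.13% lower by that much. Beside Stra6l, Ces1d, a carboxylesterase that can release retinol from its esters, read 48.7 in the knockout and 850.4 in wild type, at least 7.55-fold lower. Its other probe sets had bounds of -3.36 and -0.91. Lrat, which makes retinyl esters in stellate cells, read 397.1 in the knockout and 293.8 in wild type (0.43), with a dimmer probe set at 116.9 in the knockout and 108.6 in wild type. Rbp2 had a bound of -0.31, and Dgat1 and the carotenoid oxygenase Bco1 had log2 differences of 0.28 and -0.21. The intracellular carriers Crabp1 and Crabp2 did not reach the floor on either array, at 63.5 and 8.01 in the knockout and 50.05 and 6.40 in wild type.

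Of 3 measured breakdown genes, Cyp2s1, a cytochrome P450 that can act on retinoic acid, read 293.9 in the knockout and 41.9 in wild type, at least 2.61-fold higher. Cyp3a11, a drug-metabolizing cytochrome P450 of hepatocytes, read 32.9 in the knockout and 1068 in wild type, at least 9.49-fold lower. Ugt2b1, a conjugating enzyme, had a bound of -0.22. Cyp26b1 did not reach the floor, at 7.82 in the knockout and 32.2 in wild type. With the floor at the 60th percentile Stra6l, Rdh5 and Cyp2s1 were under 2-fold, at -0.34, -0.94 and 0.63, and with a pseudocount of 100 Rdh5 was at -0.72.

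Receptors and cofactors differed by less than 2-fold in all 9 measured genes. Their median was 0.26, with 8 above 0 and 1 below 0. Over all 11397 measured genes, 6134 were above 0, and 3.27% were higher and 2.13% lower by 2-fold or more. Rarb, the retinoic acid receptor gene that retinoic acid itself induces, read 440.9 in the knockout and 271.9 in wild type (0.70). Ppard (0.71) and Nrip1 (0.35) were also above 0, but the other Nrip1 probe sets ran down to -0.34. Ncoa3 was at -0.51 on its brighter probe set and 0.31 on the other. Rxra was at 0.26 and -0.17 on its measured probe sets, Rarg was at 0.16, and Rara did not reach the floor, at 47.2 in the knockout and 6.14 in wild type.

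Genes known to respond to retinoic acid had 12 measured members, 1 at least 2-fold higher, 1 at least 2-fold lower, and a median of 0.08. Among all measured genes, 3.27% were that much higher and 2.13% that much lower. Hoxb2, a homeobox gene, read 241.3 in the knockout and 115.8 in wild type, 2.08-fold higher, and was under 2-fold in 4 of 8 alternatives. Rarres2, which encodes the secreted protein chemerin, read 203.8 in the knockout and 585.7 in wild type, 2.87-fold lower, and its second measured probe set was at -0.98. Tgm2, a transglutaminase, read 6176 in the knockout and 3769 in wild type, and its 5 measured probe sets ran from 0.45 to 0.996. Rarres1 was at -0.80, Nr2f2 at 0.73 on its brightest probe set (-0.15 to 0.73 over the measured ones) and Dleu2 at -0.60 (0.33 and 0.40 on its other probe sets). No common direction appears among these targets.

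Markers of the liver's cell types moved beside these genes. In whole liver, fewer cells of a type and less RNA per cell cannot be told apart. Beside the marker counts below, 3.27% of the 11397 measured genes passed 2-fold upward in the knockout and 2.13% downward. Of 16 measured stellate and mesenchymal markers, 10 were at least 2-fold higher and 0 lower, with a median of 1.22 and a summed signal of 40172 in the knockout and 19206 in wild type. Col1a1 (1.99), Cdh11 (1.70), Hand2 (1.70) and Pdgfrb (1.69) were the farthest apart, and Des (-0.02) was the 1 marker below 0. Mesothelial markers had 8 measured members, 1 at least 2-fold higher (Tcf21, 1.40) and a median of 0.43, with summed signals of 3879 in the knockout and 2495 in wild type. Of these mesothelial markers, 6 were above 0 and 2 below, Upk1b (-0.30 on its brightest probe set) and Gpm6a (-0.16). Msln, Lrrn4 and Muc16 did not reach the floor on either array. The part of stellate, mesenchymal and mesothelial cells in the values of Aldh1a2 and Lrat was not tested. Of 13 measured hepatocyte markers, 6 were at least 2-fold lower and 0 higher, with a median of -0.91 and a summed signal of 172613 in the knockout and 227502 in wild type. Ahsg (-3.73), Cps1 (-2.59), Serpinc1 (-1.65) and Fgb (-1.56) led these. The other 7 differed by less than 2-fold, among them the brightest of the list, Afp (-0.05), Ttr (-0.05) and Alb (0.03). The part of hepatocytes in the values of Rbp4, Aldh8a1, Ces1d and Cyp3a11 was not tested.

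Tissues that lie near the liver and express retinal dehydrogenases gave few readings. None of the 7 kidney and 6 pancreas markers on the arrays was measured. The adrenal genes Star, Cyp11a1, Cyp11b1 and Cyp21a1 were below the floor on both arrays with every probe set, as was Th. The 3 measured adrenal markers were Hsd3b1, at 1711 in the knockout and 863.8 in wild type (0.99), Mc2r, at 128.0 in the knockout and 169.1 in wild type (-0.40), and Nr5a1, at 123.9 in the knockout and 74.0 in wild type (bound of 0.14). Among 12 gut and stomach markers 4 were measured, Tff3 (1.67) and Vil1 (bound of 1.20) at least 2-fold higher, with Tff1 (-0.75) and Fabp2 (-0.71) below 0 and Cdx1, Cdx2 and Cdh17 below the floor on both arrays. The parts of gut epithelium and of stellate, mesenchymal and other cells in the values of Adh1, Aldh1a1 and Aldh1a7 were not tested. Endothelial and macrophage medians were 0.37 and 0.42, summed signals being 5015 and 15368 in the knockout and 4174 and 11072 in wild type. All 9 endothelial markers were above 0, and 0 of them were 2-fold apart. Of 7 measured macrophage markers, 6 were above 0, 1 was at least 2-fold higher (Marco, 1.44) and 0 were lower by that much. Past 2-fold, the shares over all measured genes were 3.27% higher and 2.13% lower. The erythroid median was 0.0036, with summed signals of 61747 in the knockout and 58513 in wild type.

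Prox1 itself read 221.8 in the knockout and 340.3 in wild type on its brightest probe set, 1.53-fold lower. Its other probe sets were under the floor in the knockout, at 111.8 and 66.7, and read 205.9 and 175.4 in wild type. No source used here says whether these probe sets lie in the deleted part. The arrays also differed in sex-linked RNA. Xist, the RNA of the inactive X chromosome, read 365.7 in the knockout and 11467 in wild type, and the Y-linked Eif2s3y read 1972 in the knockout and 0.87 in wild type. That difference lies beside every retinoid gene above and cannot be told apart from genotype.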

How the data were processed

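Total liver RNA, 1 sample of conditional knockout and 1 of wild type, was labelled by the Affymetrix one-cycle assay, per the labels' protocols. The intensity values that the authors deposited were made with MAS5 (per the submitters' processing notes), which gives each probe set 1 linear signal. The 2% trimmed mean was 500.0 on both arrays, so values were used as deposited. Its version is stated in none of the sources used here. Of 45101 probe sets, 64 were controls and left out, 34945 had 1 gene symbol in GEO's platform annotation, 932 had several and 9160 were not listed. Identifiers of 34741 of these single-gene probe sets were found in RefSeq's GRCm38.p6 table, which changed 0 symbols.

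Signals under the floor, the higher of the arrays' 50th percentiles, were raised to it before log2. The floor was 112.6. The probe set of highest mean log2 signal stood for a gene. Depth has no counterpart on arrays, and their number limits the precision. Without replicates, genes were counted at 2-fold and no p-value was made. The members and all gene lists were chosen with earlier results of these data known. Named genes were all members, each other retinoid gene 2-fold apart, up to 4 more per list by size of difference, and a set of main pathway genes. Promoter sequences are RefSeq's. The comparison of the aldehyde dehydrogenase proteins was not run here, because no protein sequences were used. Counting was tested on simulated arrays. Alternatives were 3 other treatments of low signals, a pseudocount of 100, 2 rescalings, 2 choices of probe sets and other fold sizes. Python 3.11.15, numpy 2.4.6, pandas 2.3.3, statsmodels 0.14.6, Biopython 1.88 and matplotlib 3.10.9 were used.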

Additional observations from a re-analysis of the deposited data

How the results depend on the processing

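Adh1, Aldh1a1 and Aldh1a7 were at least 2-fold higher in all 8 alternatives that give a log2 difference, at 2.43 to 2.60, 3.06 to 3.99 and 1.74 to 3.14, and the range of the bounds follows the floor. Rbp4 (-0.39 to -0.38), Rdh10 (-0.12 to -0.09) and Dhrs3 (-0.67 to -0.51, over 7) stayed below 0. Aldh1a2 ran from 0.29 to 0.50 over 7. With the floor at the 60th percentile Aldh1a2, and without _s_at, _x_at and _a_at probe sets Dhrs3, gave no value. The number of retinoid genes at least 2-fold lower became 1 (Stra6) with no floor and no filter, which compares readings under the floor and adds Cyp26a1 to the higher genes, and 1 at 1.5-fold (Dhrs3). Their median became 1.502 without _s_at, _x_at and _a_at probe sets, where 6 genes were left. Other retinoid genes counted as higher were 1 with the floor at the 60th percentile, 8 with no floor and no filter, 8 at 1.5-fold and 1 at 3-fold; those lower were 10 with no floor and no filter and 3 at 3-fold. Over all measured genes, a floor at the 30th percentile gave 789 higher and 414 lower, dropping floor and filter gave 2362 and 1470, and the counts were 1125 and 594 at 1.5-fold and 99 and 102 at 3-fold, and 235 were higher with a pseudocount of 100. Under quantile normalization, 335 genes were higher and 266 lower, and under lowess correction 325 and 266, against 373 and 243 as deposited. No paired analysis was possible because each genotype had 1 array, and no array could be left out.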

Other observations

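Of the measured aldehyde dehydrogenase genes, only Aldh1a1 and Aldh1a7 were at least 2-fold higher. Aldh1a2, also a listed member, was at 0.50. Without these 3 members, the family, taken by symbol after the members' values were seen, holds 17 further genes, of which 15 were measured. Of these 15, 0 were higher and 5 were lower in the knockout by 2-fold or more, with a median log2 difference of -0.26. Over all measured genes, 3.27% were higher and 2.13% were lower by that much. Beside Aldh8a1, the lower genes were Aldh1l1, a folate enzyme, at 235.4 in the knockout and 832.8 in wild type (-1.82), and Aldh1b1, a mitochondrial enzyme, at 535.1 in the knockout and 1366 in wild type (-1.35). Aldh6a1, of valine breakdown, read 782.8 in the knockout and 1775 in wild type (-1.18), and Aldh4a1, of proline breakdown, read 481.9 in the knockout and 1008 in wild type (-1.06). Aldh2, the mitochondrial enzyme that clears acetaldehyde, read 2829 in the knockout and 2619 in wild type (0.11), and Aldh9a1 read 6383 in the knockout and 5849 in wild type (0.13).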
